A study of Mus musculus with 44 samples.

Results

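The granins and neuropeptide precursors described here are 10 genes whose proteins enter the regulated secretory pathway of neurons: Vgf, Scg2, Chga, Chgb, Scg3, Scg5, Npy, Sst, Cck and Penk. They were chosen by name, as the RefSeq mRNAs that map to these mouse symbols, and make up 10 of the 17126 genes listed in at least 1 library of the series. The choice was made with earlier results of these data known. All 10 were found. Granins are acidic proteins that help to form dense-core granules and are themselves cut into peptides. Neuropeptide precursors are packed into the same granules and cut by prohormone convertases. The peptides are released when a neuron is active and act over longer distances than classical transmitters. Vgf and Scg2 are known as genes that neurotrophins and electrical activity induce, and Sst, Npy, Cck and Penk each mark sets of cortical and hippocampal neurons.

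The study measured RNA-seq, ribosome-protected fragments (RPFs) and poly(A)-tail length in mouse cortical cultures and brain tissues. The cultures came from cortices of newborn pups of both sexes, grown with ara-C, a poison of dividing cells. Those kept for 14 days in vitro (DIV14) were unstimulated, stimulated for 30 min with BDNF (brain-derived neurotrophic factor) or with glutamate and glycine (glu/gly), or transduced with a lentivirus that expressed GFP alone or with miR-1 or miR-155 from the synapsin promoter, which is active in neurons. Those kept for 10 days (DIV10) received KCl, which depolarizes neurons, for 0, 10 or 30 min. The tissues were the hippocampus of 1 adult male mouse, embryonic hippocampus and adult male cortex, and the visual cortex of 8 young adult mice. All 8 mice spent 1 week in darkness, and 4 of them then saw light for 1 h before dissection. Each culture and each of the 3 tissues had 1 library per assay, so their values carry only an interval of counting error (95%) and no test. The 8 mice, with tail sequencing only, were the replicated comparison.

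Reads on genes ranged from 448022 to 7689624 in 12 RNA-seq libraries and from 2812215 to 23212489 in 10 RPF libraries. Tags with a measured tail ranged from 86841 to 1057812 in the 12 cultures and tissues and from 1233538 to 4812273 in the 8 mice. The 2 remaining RPF libraries, of the miRNA cultures, have contradicting labels and entered no comparison. Summed RNA-seq levels of the 4 neuronal markers Snap25, Syt1, Rbfox3 and Stmn2 were high in every sample, between 1956 and 4672 RPKM (reads per kb of counted coding sequence, scaled like RPM by the reads on genes). Those of the 3 oligodendrocyte markers were 1814 and 1498 in adult cortex and adult hippocampus and at most 22.8 elsewhere. In bulk samples, a lower level can come from fewer cells of a type or from less RNA per cell, and these cannot be told apart. The 7 immediate-early genes Fos, Fosb, Egr1, Arc, Npas4, Nr4a1 and Junb were all higher in the light mice (edgeR, adjusted p under 0.05), and at 30 min of BDNF and of KCl all 7 were at least 1.5-fold higher in RNA-seq. With glu/gly this held for all 5 that had enough counts, and at 10 min of KCl for 2 of 3.

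In the GRCm38.p6 annotation, Vgf lies on chr5:137025301-137033351, Scg2 on chr1:79434366-79440026, Chga on chr12:102554941-102565027 and Chgb on chr2:132781642-132795079. Scg3 lies on chr9:75643366-75685959 and Scg5 on chr2:113776313-113829091. The peptide precursors lie on chr6:49822710-49829507 (Npy), chr16:23889573-23891342 (Sst), chr9:121489824-121495694 (Cck) and chr4:4133536-4138815 (Penk). Reads were counted on the coding sequence without its first 50 nt, which left 1804 nt for Vgf and for Scg2 but only 244 nt for Npy, 301 nt for Sst and 355 nt for Cck.

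Promoters are shown because activity reaches several of these genes through the cAMP response element (CRE), the binding motif of CREB. RefSeq promoter sequences (GRCm38.p6, 300 bases around the start, most of them before it) matched 8 of the 10 members, all but Vgf and Penk. The full palindrome TGACGTCA, searched on both strands, was in the promoters of Scg2, Chgb and Sst, which is 3 of 8, and in 1.79% of 32851 promoters. The half-site TGACG or its reverse complement CGTCA, which the palindrome contains, was in 7 of 8, all but Npy, and in 20.8% of promoters. Such a match is a description of letters, not of binding. The Sst start is that of the curated transcript NM_009215, at base 23890844, and a predicted transcript of the gene starts upstream, at 23891342. The 120 bases before the start are given 5′ to 3′ on the gene's strand, with the CRE in capitals, and for Chga, which has no full CRE, the half-site in capitals.
Scg2, chr1:79440027-79440146, minus strand: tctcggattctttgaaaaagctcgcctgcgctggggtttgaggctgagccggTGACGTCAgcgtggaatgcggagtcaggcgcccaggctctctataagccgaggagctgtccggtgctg
Chgb, chr2:132781522-132781641, plus strand: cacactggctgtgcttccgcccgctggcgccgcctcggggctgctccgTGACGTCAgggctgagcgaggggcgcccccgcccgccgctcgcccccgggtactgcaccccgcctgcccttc
Sst, chr16:23890845-23890964, minus strand: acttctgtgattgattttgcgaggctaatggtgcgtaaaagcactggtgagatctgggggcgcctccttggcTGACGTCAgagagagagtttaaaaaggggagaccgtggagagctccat
Chga, chr12:102554821-102554940, plus strand: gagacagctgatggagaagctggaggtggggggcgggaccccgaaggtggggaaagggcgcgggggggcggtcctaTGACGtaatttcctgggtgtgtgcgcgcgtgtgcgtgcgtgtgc
The first base of the CRE lay 68 bases before the start in Scg2, 72 in Chgb and 48 in Sst, and the half-site of Chga 44 bases before it.

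Most members were abundant mRNAs in the cortical cultures, which are bulk samples. In the unstimulated DIV14 culture, RNA-seq levels per kb of counted coding sequence were highest for Scg5, the 7B2 chaperone of prohormone convertase 2, at 597 RPKM. Cck followed at 460 and Scg2, the secretoneurin precursor, at 306. Chgb was at 222, Chga at 176 and Scg3, which anchors granins to granule membranes, at 174. Sst, Npy and Penk were between 114 and 131. Vgf, a granin-like precursor of several peptides, was lowest of the 10 at 47.9, above 68.9% of the genes listed. Tail-sequencing tags of this culture did not place Vgf lowest. It was at 254 RPM of tags, above Penk (208) and Npy (105) and below the rest, of which Chga (278) and Chgb (280) were nearest. In RPFs per kb the order differed, and Vgf stood at 510, above 98.1% of genes, next to Scg5 at 513, Sst at 562 and Cck at 607.

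Translational efficiency (TE) is the log2 ratio of RPF to RNA-seq values in RPM as deposited, computed where a gene reached 10 RPM in RNA-seq. These RPM use totals larger than the reads on genes, so TE cannot be worked out from the RPKM given here. In the unstimulated DIV14 culture, Vgf had a log2 TE of 5.06 (interval 4.63 to 5.48), against a median of 1.14 over 5128 genes. Its rank was 10 of these genes. This TE rests on 44 RNA-seq reads of Vgf, whose low RNA-seq level was not seen in tags. In the GFP culture the log2 TE of Vgf was again 5.06 (4.66 to 5.46), and in the unstimulated DIV10 culture it was 4.47 (4.15 to 4.79). Vgf had the highest TE of the members past the cutoff in all 7 cultures with both assays. Sst, an interneuron peptide, came next where it passed the cutoff, with a log2 TE of 3.11 in the unstimulated DIV10 culture and 3.75 in the GFP culture. Chga and Scg3 were at 2.34 and 2.27 in the unstimulated DIV14 culture. Scg2 and Scg5, at 1.25 and 1.43, were near the median gene. In all 10 samples with TE values, every member past the cutoff lay above the median gene except Npy in adult hippocampus, at 0.85 against 0.88. A TE above the median was not particular to the members. In the unstimulated DIV14 culture, 4 of 4 neuronal, 5 of 6 GABAergic and 4 of 4 astrocyte markers past the cutoff lay above it. So did 11 of 15 genes for processing enzymes and granule machinery. Median log2 TE was 2.08 for the members, and 2.80, 2.73, 1.90 and 1.64 for these lists in turn.

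**Figure D1:**
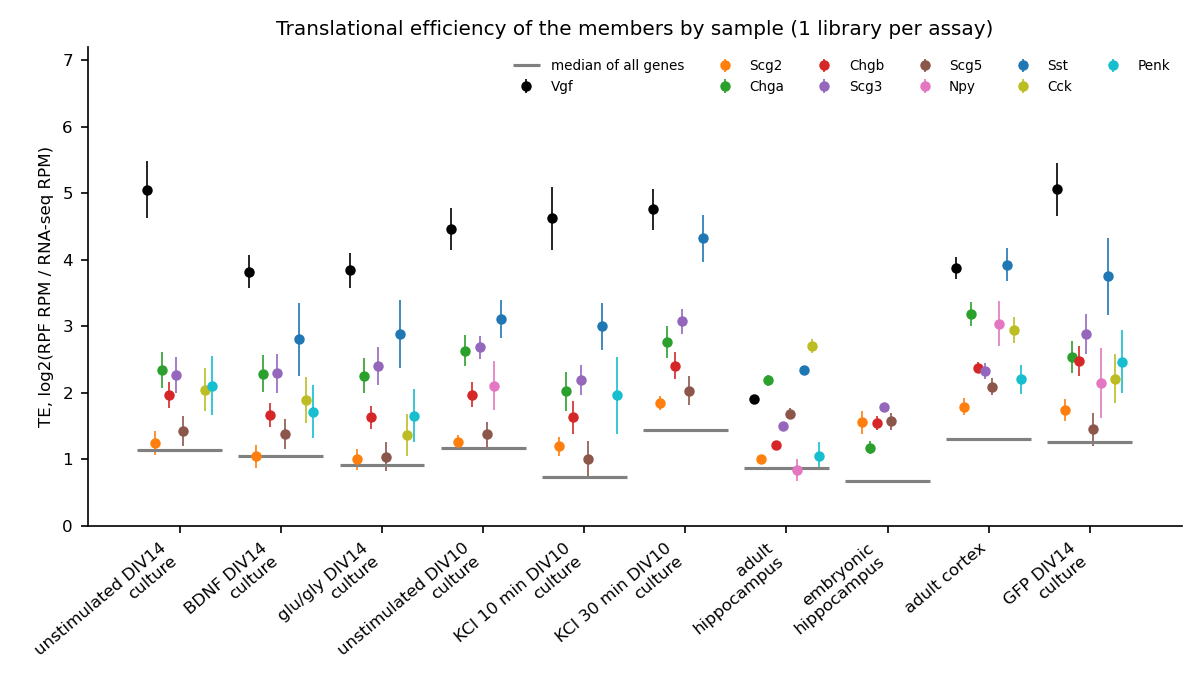
TE (log2 of RPF RPM over RNA-seq RPM, vertical axis) of each member past 10 RPM in 10 samples (horizontal axis), with 95% intervals of counting error, and the median of all genes past the cutoff as a grey line. Vgf stood highest in all 7 cultures, at 3.82 to 5.06, but at 1.91 in adult hippocampus.

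TE of Vgf was not uniform over tissues. In adult cortex its log2 TE was 3.88 (3.72 to 4.05), and only Sst, at 3.93 (3.68 to 4.18), was as high among the members, with intervals that overlapped. At 30 min of KCl the intervals of Vgf (4.45 to 5.07) and Sst (3.97 to 4.68) overlapped too. In adult hippocampus Vgf was at 1.91 (1.85 to 1.97), above 89.5% of genes and below Cck (2.70), Sst (2.34) and Chga (2.19). The median gene differed by 0.51 between these tissues, and relative to it Vgf was higher in adult cortex by 1.46 (1.29 to 1.64). Relative to the median gene, Npy was also higher in adult cortex, by 1.68, Sst by 1.07, Chgb by 0.65 and Penk by 0.64. These 5 of 10 members were at least 1.5-fold above the median change with an interval that left out 0, as were 18.3% of 4813 genes, and no member was at least 1.5-fold below it, as were 16.5% of genes. RNA-seq of the hippocampi used poly(A) selection and that of adult cortex depletion of ribosomal RNA, so that library preparation and tissue cannot be told apart.

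Levels of most members were far higher in adult than in embryonic hippocampus. In RNA-seq, 8 of 10 members were at least 1.5-fold higher, where 28.6% of 12884 genes were, and none was lower, where 37.3% of genes were. Vgf had 196 RPKM in adult and 9.73 in embryonic hippocampus, a 20.1-fold difference (16.9 to 24.1). Penk, the enkephalin precursor, was 18.5-fold higher (10.8 to 34.3), Sst 16.8-fold, Npy 16.1-fold, Cck 13.7-fold, Chgb 12.5-fold and Scg2 10.3-fold. Scg5 was 2.75-fold higher. Chga and Scg3 differed least, by 1.25-fold (1.16 to 1.36) and 1.17-fold (1.11 to 1.23), so that in the embryo Scg3, at 298, was the most abundant member per kb. In RPFs, Vgf was 35.1-fold higher in the adult (31.8 to 38.7), and Cck 40.4-fold higher. Of the members, 9 of 10 were at least 1.5-fold higher in RPFs, where 36.2% of 12819 genes were, and none lower, where 41.7% were. In tags, 4 of the 7 members with enough counts were higher, where 24.4% of 3846 genes were, and none lower (17.4% of genes). Scg3 had 0.79 times the embryonic RPF level (0.78 to 0.81). TE could be compared for 5 members: relative to the median gene, that of Chga was higher in the adult by 0.80 and that of Scg2 lower by 0.78 on the log2 scale, where 22.1% and 22.6% of 5431 genes were. With the deposited RPM as the scale, the same count of 8 was higher in RNA-seq, but Scg3 was at 0.93 times and Chga at 1.00 times, and the median gene was at -0.55 on the log2 scale. Cell type markers differed too. Summed RNA-seq levels in adult and embryonic hippocampus were 4417 and 1956 RPKM for neurons, 1221 and 315 for excitatory neurons, 1019 and 119 for astrocytes and 32.7 and 491 for progenitors, of which all 4 markers were lower. Their part in the members' levels was not tested.

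The processing machinery of the granules was mixed. Of 17 genes for processing enzymes and granule machinery, 9 were at least 1.5-fold higher in the RNA-seq of adult hippocampus and 2 were lower (28.6% and 37.3% of all genes). Carboxypeptidase E (Cpe), which trims the peptides after cleavage, was 6.45-fold higher, prohormone convertase 2 (Pcsk2) 10.7-fold and the convertase Pcsk1 7.89-fold. Pam, which amidates peptide ends, was lower at 0.63 times, and Syt4, a granule synaptotagmin, at 0.59 times. Summed levels of the 10 GABAergic markers were 636 in adult and 451 in embryonic hippocampus, and 6 were higher and 4 lower; their part in the higher Sst and Npy was not tested.

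Between adult cortex and adult hippocampus the members split. Sst was at 260.5 RPKM in cortex and 980 in hippocampus, which was 0.27 times (0.22 to 0.32). Chgb was at 0.47 times and Vgf at 0.51 times (0.46 to 0.58), whereas Penk was 3.41-fold higher in cortex (2.81 to 4.13) and Scg5 1.63-fold. Of all 12099 genes, 18.3% were at least 1.5-fold higher and 17.2% lower. This split rests on the scale. With the deposited RPM 7 members were lower in cortex, Vgf at 0.34 times, Chgb at 0.31, Sst at 0.17, Scg2 at 0.56, Chga at 0.53, Scg3 at 0.52 and Npy at 0.51, and Penk alone was higher, at 2.23-fold. The median gene was then at -0.62 on the log2 scale. In RPFs only Sst remained at least 1.5-fold lower in cortex, at 0.55 times (21.9% of 12511 genes were lower), and Penk, at 5.24-fold, and Npy, at 2.47-fold, were higher (29.5% of genes). In tags 8 of 10 members were higher in cortex (15.3% of 6739 genes) and none lower (17.5%). Vgf and Sst, lower in RNA-seq, were among the 8. They were at 213 and 765 RPM of tags in cortex and at 54.1 and 158 in hippocampus. However, the adult hippocampus gave under 100 tags for every member except Cck, with 12 for Vgf, and was sequenced by another tail method. Vgf RPFs went the other way from its RNA-seq reads, at 1.40 times (1.36 to 1.44).

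**Figure D2:**
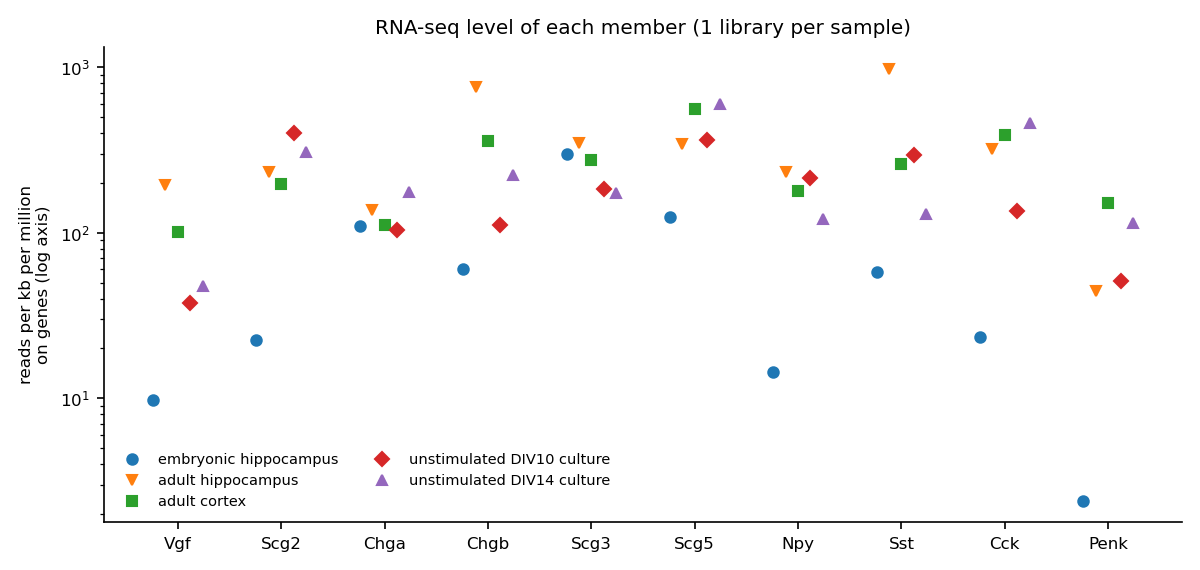
RNA-seq level of each member in 5 unstimulated samples, in RPKM (log axis), 1 library each. Embryonic hippocampus was lowest for 8 of the 10 members, from 2.41 for Penk to 125 for Scg5, but not for Chga and Scg3.

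Over the 12 RNA-seq libraries, the 5 genes most like Vgf by Pearson correlation of log2 RPM, among 2827 genes with at least 10 RPM in each library, were Rap1gap (r = 0.92), Arhgap44 (0.90), Nsf (0.89), Ttc19 (0.89) and Abhd12 (0.89). Over the 9 cultures alone these correlations were 0.69 to 0.83. The libraries share culture batches, depth and RNA preparation, and the values are a description. Among the members, Chgb was most like Vgf (r = 0.88), followed by Cck (0.70), and Scg3 least (0.18).

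After 30 min of BDNF, Vgf was the 1 member past 1.5-fold in RNA-seq. Vgf had 44 reads in the unstimulated DIV14 culture and 128 with BDNF, or 47.9 and 148 RPKM, a 3.09-fold difference (2.18 to 4.45). This was 1 of 10 members, against 2.17% of 7868 genes at least 1.5-fold higher, and Vgf lay above 99.7% of genes. Scg2 and Chgb were each 1.27-fold higher (1.08 to 1.49 and 1.06 to 1.52), and the other 7 were between 0.88 and 1.49 times the control, each with an interval that held 1. No member was lower (2.85% of genes were).

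The other assays gave a smaller difference for Vgf. RPFs of Vgf were 1.40-fold higher with BDNF (1.34 to 1.46), and its tail-sequencing tags 1.39-fold (1.18 to 1.63), from 265 to 373 tags. Both intervals lay below that of RNA-seq. No member passed 1.5-fold in RPFs (1.59% of 11595 genes were higher and 6.65% lower) or in tags (1.72% of 8876 genes were higher and 3.53% lower). Log2 TE of Vgf accordingly was 3.82 with BDNF and 5.06 without. Relative to the median gene this was lower by 1.13 (0.63 to 1.63), and Vgf was the 1 member of 8 past 1.5-fold, where 2.61% of 4705 genes were lower. Its TE with BDNF was still above 98.9% of genes.

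Glu/gly was measured against the same unstimulated library. Vgf had 118 RNA-seq reads, 2.27-fold above the control (1.59 to 3.28), as the 1 member past 1.5-fold, where 4.87% of 8175 genes were higher and 4.44% lower. RPFs of Vgf were 1.21-fold higher (1.15 to 1.27) and tags 1.25-fold (1.05 to 1.49), and no member passed 1.5-fold in either assay. In RPFs 2.01% of genes were higher and 6.01% lower, and in tags 1.98% and 2.48%. Log2 TE of Vgf was lower than in the control by 0.91 relative to the median gene (0.41 to 1.42), where 5.35% of 4731 genes were lower. Because both stimuli were set against 1 library with 44 Vgf reads, the 2 differences share its error. In the GFP culture, a separate unstimulated library, Vgf was at 63.1 RPKM, between the unstimulated culture and the glu/gly culture, at 109.

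With KCl, Penk, Scg2, Sst and Vgf each passed 1.5-fold in at least 1 assay. At 30 min, RNA-seq was 1.84-fold higher for Penk (1.22 to 2.77), 1.61-fold for Vgf (1.18 to 2.21) and 1.52-fold for Scg2 (1.38 to 1.67), and no member was lower. This was 3 of 10, where 7.3% of 10106 genes were higher and 11.5% lower. With the deposited RPM, where the median gene was at -0.56 on the log2 scale, none of the 3 passed in RNA-seq (Penk 1.30, Vgf 1.14 and Scg2 1.08 times) and Sst was lower, at 0.65 times. Reads on genes put Penk higher in every assay at this time, 2.06-fold in RPFs (1.78 to 2.38) and 2.15-fold in tags (1.59 to 2.94). Scg2 RPFs were 1.68-fold higher and those of Sst 1.57-fold, so that 3 of 10 members passed in RPFs, where 4.87% of 12490 genes were higher and 12% lower. In tags Penk alone passed, where 4.17% of 8322 genes were higher and 3.83% lower. Vgf RPFs, at 1.45-fold (1.38 to 1.53), stayed below 1.5-fold. TE of Sst was higher by 0.89 relative to the median gene (0.43 to 1.34), the 1 member of 7 past 1.5-fold, where 11.7% of 3535 genes were.

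At 10 min of KCl no member passed 1.5-fold in RNA-seq, where 2.48% of 9864 genes were higher and 2.61% lower. RPFs of Sst and Penk were 1.59-fold (1.51 to 1.69) and 1.59-fold (1.39 to 1.81) higher, where 4.15% of 12661 genes were higher and 13.3% lower. With the deposited RPM both were at 1.40 times and neither passed. In RPFs, 2 of the 10 GABAergic markers were at least 1.5-fold higher at each KCl time and none lower, and their part in the higher Sst was not tested. Tags of Penk were 2.11-fold higher (1.53 to 2.92), from 60 to 120, where 2.86% of 7896 genes were. Vgf RPFs were 1.41-fold higher (1.36 to 1.47) while its RNA-seq count was at 1.00 times the control (0.65 to 1.49). The median TE change of all genes was -0.41 at 10 min and 0.32 at 30 min, and no member's TE passed 1.5-fold relative to it at 10 min, where 5.6% of 4734 genes were higher and 14.4% lower.

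**Figure D3:**
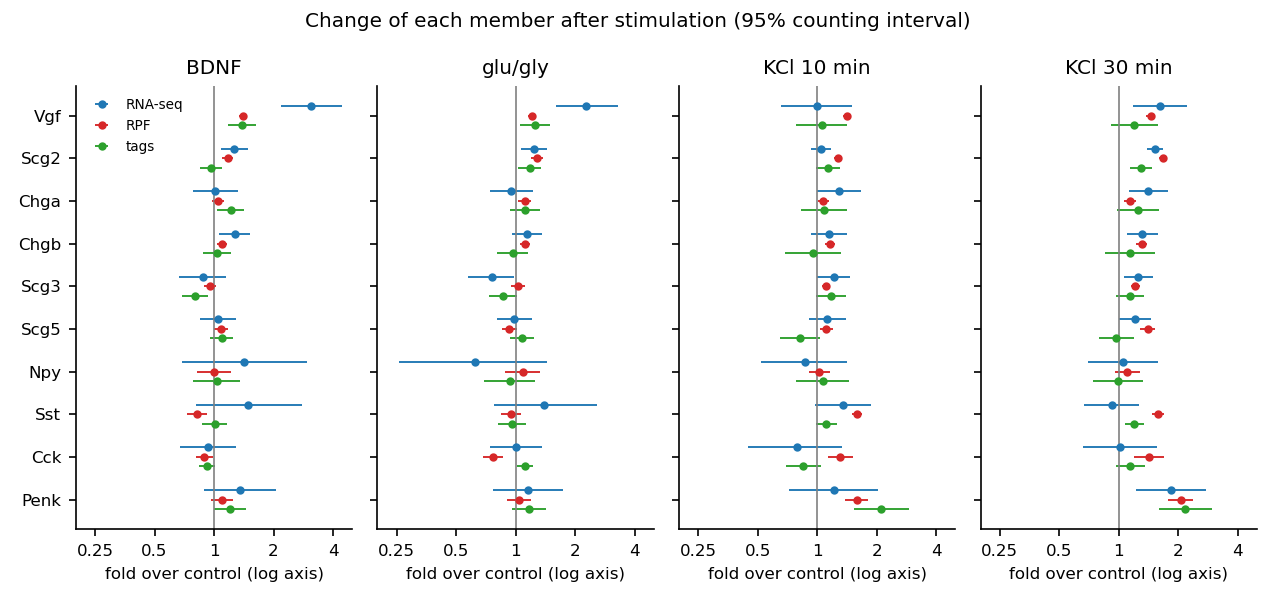
Fold of each member over its control (horizontal log axis) in RNA-seq reads, RPFs and tail-sequencing tags after BDNF, glu/gly and KCl, with 95% intervals of counting error. The RNA-seq fold of Vgf after BDNF, 3.09, lay to the right of those of its RPFs and tags, and Penk lay to the right of 1 in all 3 assays at 30 min of KCl.

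Processing genes passed 1.5-fold in both directions in RPFs. Of 16 tested after BDNF, 1 passed 1.5-fold in RNA-seq (2.17% of all genes tested were higher). After glu/gly 2 of 16 did (4.87%) and at 30 min of KCl 2 of 17 (7.3%), all higher. In RPFs 1 of 17 was higher and 1 lower after BDNF (1.59% and 6.65% of genes) and after glu/gly (2.01% and 6.01%). At 10 min of KCl 0 were higher and 4 of 17 lower (4.15% and 13.3%). At 30 min 3 were higher and 2 lower (4.87% and 12%). At 30 min of KCl, the convertase Pcsk1 was 1.88-fold higher in RNA-seq (1.25 to 2.84) and 1.72-fold in RPFs (1.46 to 2.02). RPFs of Pcsk1n, an inhibitor of Pcsk1, were lower with BDNF at 0.45 times (0.41 to 0.49) and at 30 min of KCl at 0.35 times (0.31 to 0.40). In RNA-seq no processing gene was called lower in either comparison, and in tags 1 of 15 was in each (3.53% and 3.83% of all genes). Of the other neuropeptide precursors at most 5 of 18 reached the counts needed in RNA-seq of the 4 stimulated cultures, and of the receptors 2 of 11. RPFs at 30 min of KCl were higher for 4 of the 12 precursors and 3 of the 8 receptors with enough counts (4.87% of all genes). At 10 min this held for 2 of 12 and 0 of 8 (4.15%), and none was lower at either time.

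With the overexpressed miRNAs, few members passed 1.5-fold. Against the GFP culture, RNA-seq of Npy was at 0.45 times with miR-1 (0.26 to 0.76) and 0.44 times with miR-155 (0.29 to 0.70), from 32 reads in the shared control. Chgb was 1.59-fold higher with miR-1 (1.35 to 1.89) and Cck 1.62-fold (1.22 to 2.17). With miR-155 no member passed as higher in RNA-seq. Of the excitatory markers tested, 2 of 4 were higher with miR-1 and 1 of 5 with miR-155 (summed 193 and 180 RPKM, against 114 with GFP). Of the immediate-early genes tested, 3 of 5 were higher with miR-1 and 2 of 6 with miR-155 (291 and 282 against 168). The part of these 2 sets in the Chgb and Cck values was not tested. Of 8500 genes 3.82% were higher and 5.66% lower with miR-1, and of 9944 genes 3.25% and 4.49% with miR-155. In tags Npy was at 0.89 times (0.57 to 1.40) and 0.99 times (0.64 to 1.52). Tags gave a lower level of Sst, 0.54 times (0.42 to 0.69) with miR-1 and 0.53 times (0.42 to 0.67) with miR-155, where 4.63% of 6481 and 3.89% of 6588 genes were lower and 3.73% and 3.08% higher. RNA-seq of Sst was at 0.70 times (0.41 to 1.22) and 0.75 times (0.47 to 1.22). The summed RNA-seq level of the 10 GABAergic markers was 1043 in the GFP culture, 777 with miR-1 and 839 with miR-155. In RNA-seq 2 of the 10 markers were at least 1.5-fold lower and 1 higher with miR-1, and 1 was lower with miR-155. In tags, 4 of 8 markers were lower with miR-1 and 2 of 7 with miR-155. The unstimulated DIV14 culture, which received no virus, was at 790 RPKM for the summed markers. Its Npy level was 121 RPKM, against 293 in the shared control, 131 (miR-1) and 130 (miR-155). For Sst the RNA-seq values, in the same order, were 131, 185, 130 and 138 RPKM. In RNA-seq the shared control was thus the highest for both. Sst tags were 347, 465, 251 and 246 RPM, lower with either miRNA than in both other cultures. The part of the markers, or of a high control library, in the lower Sst and Npy was not tested.

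Poly(A) tails of Npy and Sst mRNA were among the longest in every sample in which 50 tags were counted outside the hippocampi. The mean tail of Npy was 171 nt in the unstimulated DIV14 culture, and 126 nt in adult cortex, above 98.7% of genes. Sst tails were 146 nt and 118 nt in the same samples, above 99.6% and 94.9% of genes. Cck tails, at 96.6 and 88.3 nt, lay above only 11.2% and 15.4% of genes, and those of Penk, at 94.3 and 82.5 nt, above 8.13% and 6.4%. In the unstimulated DIV10 culture, Cck tails lay above 29.7% and Penk tails above 19.1% of genes. In the 4 dark mice, sequenced by another tail method, Cck tails lay above 30.5% to 55.3% of genes and Penk tails above 31.9% to 59.7%. Vgf tails were near the middle in the unstimulated DIV14 culture and adult cortex, at 114 nt (58.2% of genes) and 101 nt (54.8%). Tail values of the hippocampi were taken as medians, and were not compared with these means.

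Tail changes in the stimulated cultures were small for most members. With BDNF the mean Vgf tail was 126 nt against 114 nt, 12.5 nt more than the median change, and that of Npy 158 nt against 171 nt, 12.0 nt less. Of 4098 genes, 7.98% were at least 10 nt longer than the median change and 7.17% shorter. With glu/gly the Npy tail was 144 nt, a change of -22.04 nt relative to the median change, from 109 tags in the control and 78 with glu/gly, where 7.91% of 3516 genes were at least 10 nt shorter. Chgb tails were shorter by 14.4 nt at 10 min of KCl and by 13.4 nt at 30 min relative to the median change, from 82 control tags, where 7.39% of 2543 and 7.07% of 2815 genes were. With miR-155 the tails of Scg2 and Penk were longer by 12.0 and 10.3 nt, where 8.52% of 1783 genes were at least 10 nt longer. With miR-1 no member passed 10 nt, where 8.92% of 1748 genes were longer and 8.12% shorter. Vgf tails with KCl were 100.4 and 105 nt against 109.5 nt in the control.

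In the visual cortex after 1 h of light, no member passed the test in level and 1 member, Vgf, passed it in tail length. Normalized tags of Vgf, in RPM, were 122, 145, 171 and 111 in the dark mice and 158, 158, 203 and 229 in the light mice. The groups overlapped, and the log2 fold change was 0.44 ± 0.14 (SE), or 1.36-fold, with an adjusted p of 0.15 by edgeR. No member passed the threshold (1.21% of 9554 genes were higher and 0.126% lower), and Vgf was the 1 member at an unadjusted p under 0.05, as were 5.28% of genes in the higher direction. Scg2 and Scg5 followed at log2 fold changes of 0.22 ± 0.11 and 0.21 ± 0.10, Chgb and Chga at 0.16 each, and the 5 others were between -0.04 and 0.11. The median of the 10 members was 0.13, and that of all genes was -0.005.

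Mean Vgf tails were 84.9, 84.4, 76.2 and 74.2 nt in the 4 dark mice and 99.2, 118, 125 and 83.7 nt in the 4 light mice. In 3 light mice the tail was longer than in any dark mouse, whereas light mouse 4 lay within the dark range. The means were 79.9 ± 5.55 nt and 107 ± 18.8 nt (SD, n = 4 each). The difference of 26.7 ± 6.68 nt (SE) passed in limma at an adjusted p of 0.039, and Vgf was the 1 member to do so, where 0.231% of 4321 genes were longer and none shorter. The limma fit gave every gene this SE, a shared value, whereas the SDs of Vgf alone give an SE of 9.81 nt. The oligodendrocyte marker Mbp was also called longer in light, by 27.1 nt (limma, adjusted p = 0.037), the 1 gene of the marker lists called in tail length. With each mouse centred it did not pass (limma, adjusted p = 0.073). The exact two-sided permutation test over the 8 mice gave p = 0.086, and its smallest possible value is 0.029. The call was lost without any of dark mice 2, 3 and 4 or light mice 2 and 3, with adjusted p from 0.096 to 0.91.

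Scg2 and Chgb had the next largest tail differences among the members. Scg2 tails were 94.99, 92.5, 72.1 and 80.4 nt in the dark and 102, 118, 121 and 88.1 nt in light, a difference of 22.2 nt with an adjusted p of 0.21 in limma. Chgb tails were 80.2, 77.6, 65.7 and 72.3 nt in the dark and 80.0, 95.01, 105 and 77.0 nt in light, a difference of 15.2 nt. The groups of both genes overlapped. The remaining 7 members differed by 2.36 to 7.84 nt, against a median of 3.75 nt over all 4321 genes.

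The mice differed in their tails as a whole, with medians over genes of 92.4, 90.7, 77.5 and 80.0 nt in the dark mice and 83.3, 94.1, 97.5 and 81.7 nt in the light mice. After each mouse's median was subtracted, an alternative chosen after seeing the data, the 4 light mice lay above the 4 dark mice for Vgf, Scg2 and Chgb, 3 of 10 members, as for 3.19% of 4321 genes. Centred Vgf tails were -7.50, -6.24, -1.32 and -5.86 nt in the dark and 15.9, 24.2, 27.8 and 2.01 nt in light. Centred Scg2 tails were 2.58, 1.89, -5.47 and 0.39 nt in the dark and 18.6, 23.4, 23.8 and 6.42 nt in light. Those of Chgb were -12.2, -13.0, -11.8 and -7.73 nt in the dark and -3.32, 0.87, 7.07 and -4.71 nt in light. For each of these 3 genes the exact permutation p was 0.029, the smallest that 4 against 4 mice allow. Groups that do not overlap always give this value, so it adds nothing to the separation. In limma on the centred values, the differences were 22.7 ± 4.83, 18.2 ± 3.89 and 11.2 ± 2.97 nt, and none passed (adjusted p = 0.15, 0.15 and 0.23).

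**Figure D4:**
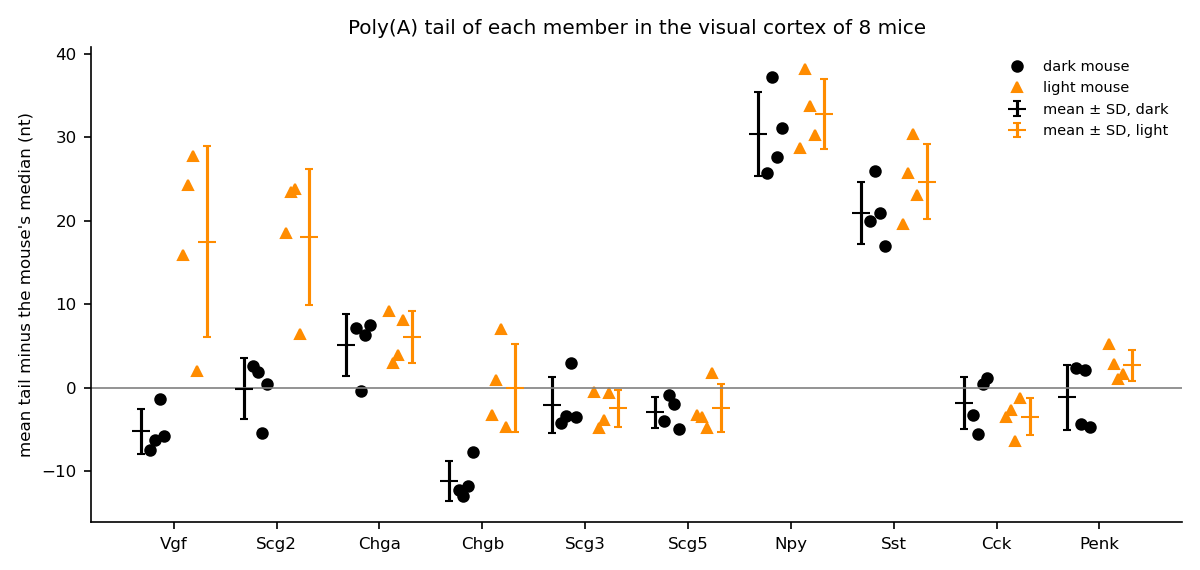
Mean poly(A) tail of each member minus the median tail of all genes in the same mouse (nt, vertical axis), for 4 dark and 4 light mice, with mean ± SD. The light mice lay above all dark mice for Vgf, Scg2 and Chgb, with light mouse 4 the lowest of the light group for each of the 3, and groups overlapped for the other 7 members.

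Tails of Npy and Sst were again the longest of the members, at 116 ± 9.74 and 106 ± 9.85 nt in dark mice and 122 ± 11.4 and 114 ± 12.0 nt in light mice (SD, n = 4 each), and did not pass in limma (adjusted p = 1.00 for each). Normalized tags of Sst, in RPM, were 492 ± 90.8 in the dark and 496 ± 120 in light, and those of Cck 1477 ± 107 and 1588 ± 154. None of 15 processing enzymes tested, 10 other neuropeptide precursors or 5 receptors of the member peptides passed in expression. Cpe and Pcsk1n, the most abundant processing genes, were at log2 fold changes of -0.07 and 0.07, and Pcsk2 was at 0.01. Among the most abundant of the other precursors, Vip was at 0.28, Grp at 0.07 and Pdyn at 0.55 (edgeR, adjusted p = 0.46, 0.95 and 0.26). The receptors Cckbr, Npy1r and Sstr1 were at 0.23, -0.20 and -0.53 (edgeR, adjusted p = 0.64, 0.71 and 0.078). Summed GABAergic markers were 913 to 999 RPM of tags in dark mice and 909 to 1103 in light mice.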

How the data were processed

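RNA-seq and RPF counts were deposited as reads on the coding sequence of 1 mRNA a gene, its first 50 nt left out, beside an RPM value for which the authors used a total above the sum of the counts. The deposited tail files hold a count of tags and a mean tail length per gene. Those of the hippocampi name no measure, lie on multiples of 0.5 nt and were taken as medians. The authors' log2 TE served as an alternative. The submitters' processing notes name STAR 2.4.2, bedtools and mm10. A further 66 columns of the 2 combined files were not used. Symbols and sequences came from RefSeq (GRCm38.p6).

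Folds were scaled by reads on genes, for genes with at least 20 counts over both libraries, with Clopper-Pearson intervals (95%), and called at 1.5-fold where the interval left out 1. Intervals of TE took the log counts as normal. All intervals cover counting error only. The 10-nt limit in cultures, the call of TE relative to the median gene and the centring of each mouse were chosen after seeing the data. Tails needed 50 tags. Mice were compared with edgeR 4.0.16 (TMM, quasi-likelihood) and limma 3.58.1 in R 4.3.3, with Benjamini-Hochberg adjustment at 0.05, both tested on simulated data. DESeq2 1.42.0 was an alternative. The permutation test of levels used log2(RPM of tags + 0.5).

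The members and gene lists were chosen with earlier results of these data known. The rule named all 10 members and, of each list, the genes called in light or else the 3 most abundant, which was applied to the processing, precursor, receptor and immediate-early lists. Marker lists are given as sums and counts, with the 1 marker called in light, and the 5 genes most like Vgf are named. Pcsk1, Pam and Syt4 were named after their values were seen.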

Additional observations from a re-analysis of the deposited data

How the results depend on the processing

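With light, 0 members passed in expression but 1, Vgf, did with no filter on low counts (edgeR, adjusted p = 0.017). The count of members with longer tails, 1 as reported, was 0 with at least 20 tags, with log2 of tail length, with weights from tag counts and with each mouse centred, and 0 to 2 when a mouse was left out, with or without centring. Without light mouse 4, Vgf and Scg2 both passed (limma, adjusted p = 0.0017 and 0.015). With sample number as a replicate block it was 0, and 0 with centring as well, but the numbers are only names: deviations of same-numbered mice correlated between -0.20 and 0.04, so they do not pair the mice.

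With tail-sequencing tags in place of RNA-seq, 0 members passed 1.5-fold after BDNF and glu/gly (1 each in RNA-seq), 1 at 10 min (0) and 1 at 30 min of KCl (3) and 1 with miR-1 (3). Tags gave 4 for adult over embryonic hippocampus (8). For adult cortex over hippocampus tags gave 8, all higher (5, of which 2 were higher and 3 lower), and Vgf and Sst changed direction. With the authors' RPM, 1 member passed at 10 min (0; Sst, higher at 1.52) and 1 at 30 min of KCl (3; Sst, lower at 0.65), 0 in RPFs at 10 min (2), and 8 for cortex over hippocampus (5), 7 of them lower and 1 higher. TE changes at 30 RPM or more gave 0 after BDNF, glu/gly and 30 min of KCl (1 each). The called members fell below this minimum and were not compared. Vgf was at 18.6 RPM in the shared control, and Sst at 17.4 RPM in the unstimulated DIV10 culture. Tail changes past 10 nt became 0 at 100 tags for glu/gly and both KCl times (1 each), and 1 at 20 tags for miR-1 (0). At 100 tags, Npy with glu/gly (78 tags) and Chgb with KCl (82 control tags) were not compared. The causes of the other differences were not tested, and higher minimums leave fewer genes. The other 87 counts of members stayed within 1.5 times. The single libraries of cultures and tissues limit these comparisons to counting error.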

Other observations

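In the 2 RPF libraries of the miRNA cultures whose titles name both miRNAs, with 817114 and 6428048 reads on genes, Vgf was at 591 and 463 RPKM by reads on genes, Sst at 370.0 and 401 and Scg2 at 453 and 266.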
